A study of Homo sapiens with 12 samples.

Results

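The genes described here are 9 genes of the NRF2 pathway: NFE2L2, which encodes the transcription factor NRF2, its inhibitor KEAP1, and 7 genes of protective and NADPH-producing enzymes, HMOX1, NQO1, TXNRD1, SRXN1, PGD, TALDO1 and ME1. They were chosen by symbol and are 9 of the 19775 genes and 18 of the 54675 probe sets of the array. The cells were HK-2, a kidney line derived from human proximal tubule epithelium and immortalized, and RNA was measured on 12 Affymetrix arrays, 3 in each of 4 groups: Fk for 48 h, control vehicle for 48 h, Fk for 12 h and control vehicle for 12 h. All groups shared a medium made of DMEM and Ham's F12 with 5 mM glucose, EGF, hydrocortisone, insulin, transferrin and sodium selenite, and were treated at near confluence 24 h after seeding. The compound is given in the labels as Fk and its dose is not used here. The labels call the 3 samples of a group biological replicates of 1 cell line, so the p-values measure the spread between cultures of that line.

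NRF2 is kept low by KEAP1, an adaptor that brings it to a CUL3 ubiquitin ligase for degradation. Electrophiles and oxidants modify KEAP1, NRF2 then accumulates, pairs with small MAF proteins and binds antioxidant response elements near genes of quinone reduction, thioredoxin recycling, glutathione synthesis, heme breakdown and NADPH supply. Because this control acts on the protein, the transcript of NFE2L2 is not a measure of NRF2 activity, and in tubular cells the pathway is studied as a defence against toxic compounds.

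To show where the core letters of a response element occur close to the starts of these genes, promoter windows were read from RefSeq (GRCh38.p14). They ran from 250 bases before to 50 bases after the gene start. The table held 11 windows for 8 of the 9 genes, all but HMOX1. The core TGANNNNGC was searched on both strands, and it lay in 7 of the 11 windows, in 6 genes, against 41.8% of 35116 windows of the same length. The stricter TGACNNNGC lay in 5 of the 11 windows, in 4 genes, against 13.3% of all windows. The AP-1 element TGANTCA lay in 1 of the 11 windows, in ME1 from position -137 to -131, inside a TGANNNNGC match at -137 to -129, against 7.71% of all windows. A match is a run of letters and not a measured binding site, and elements outside these windows were not searched. Windows are printed for NFE2L2, KEAP1 and ME1, the genes that passed the test between times in control cells, and for NQO1, a textbook NRF2 target that passed in no comparison. Capitals mark the TGANNNNGC matches on either strand. NFE2L2 and KEAP1 have 2 windows each, and the one that holds matches is shown. The windows are, in the gene's direction, chr2:177264082-177264381 (minus strand) for NFE2L2, chr19:10502722-10503021 (minus strand) for KEAP1, chr6:83431002-83431301 (minus strand) for ME1 and chr16:69726511-69726810 (minus strand) for NQO1.
NFE2L2: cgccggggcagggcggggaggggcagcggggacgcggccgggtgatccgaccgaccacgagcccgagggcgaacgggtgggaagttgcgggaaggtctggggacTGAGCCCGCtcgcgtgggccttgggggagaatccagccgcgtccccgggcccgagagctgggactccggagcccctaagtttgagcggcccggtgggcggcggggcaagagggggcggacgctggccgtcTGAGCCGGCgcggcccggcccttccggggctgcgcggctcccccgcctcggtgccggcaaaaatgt
KEAP1: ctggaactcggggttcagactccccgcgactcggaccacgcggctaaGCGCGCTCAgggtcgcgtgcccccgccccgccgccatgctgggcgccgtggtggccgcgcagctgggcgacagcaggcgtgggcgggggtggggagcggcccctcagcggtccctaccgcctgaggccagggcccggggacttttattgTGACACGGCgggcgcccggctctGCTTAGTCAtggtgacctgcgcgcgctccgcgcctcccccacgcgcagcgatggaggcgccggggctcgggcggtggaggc
ME1: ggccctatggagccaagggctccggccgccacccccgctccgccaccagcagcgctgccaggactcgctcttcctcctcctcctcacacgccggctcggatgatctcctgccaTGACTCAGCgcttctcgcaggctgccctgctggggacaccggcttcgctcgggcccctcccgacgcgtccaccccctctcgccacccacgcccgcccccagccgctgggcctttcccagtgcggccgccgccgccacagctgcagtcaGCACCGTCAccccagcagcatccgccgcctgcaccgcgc
NQO1: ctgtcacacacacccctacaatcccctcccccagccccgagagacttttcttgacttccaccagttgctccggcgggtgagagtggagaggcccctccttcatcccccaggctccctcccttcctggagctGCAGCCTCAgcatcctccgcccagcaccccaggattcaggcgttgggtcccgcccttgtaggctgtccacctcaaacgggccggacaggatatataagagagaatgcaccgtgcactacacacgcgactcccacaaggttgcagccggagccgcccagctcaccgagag
In NFE2L2 the matches lie at -146 to -138 and at -16 to -8. KEAP1 holds 3, at -203 to -195, at -54 to -46 and at -31 to -23. ME1 has a second match past its start, at 12 to 20. NQO1 has 1, at -119 to -111 on the opposite strand, and this one lacks the C that the stricter core asks for.

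The values are log2 GCRMA signals, so 1 unit is a doubling of signal, and a signal is not compared between probe sets. Each gene was read from its brightest probe set that names 1 gene, and was tested if that probe set reached 4 on at least 3 arrays, which all 9 genes did, with 10784 genes in all. Array medians ran from 2.85 to 2.94. Fk 12 h replicate 3 stood apart from its group: 1091 genes lay over 1 log2 unit below the mean of the other replicates, 569 lay over 1 unit above it, and its control probe set for large-subunit ribosomal RNA read 14.38 against 8.50 to 10.29 on the other 11 arrays. Several results that this array moves are given with and without it, and the other values for Fk 12 h cells include it. Of 10 proximal tubule markers on the table only PAX8 passed the level filter, at a mean of 10.89, and the other 9 averaged 2.11 to 3.81, near background. All 6 general epithelial markers were measured, from 6.89 for CDH1 to 13.10 for KRT18. The 3 immune markers on the table averaged 1.81 to 2.92, and of 4 endothelial markers only PECAM1 passed the filter, at a mean of 3.97. Of 5 stromal markers 3 passed, DCN at 9.18, LUM at 9.36 and COL1A1 at 8.08. The arrays thus carried epithelial and some stromal marker transcripts, with most tubule markers near background. The labels name 1 cell line for all arrays, so these markers describe that line and do not count cell types. Bulk RNA cannot tell a change in all cells from a change in some of them.

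**Figure D1:**
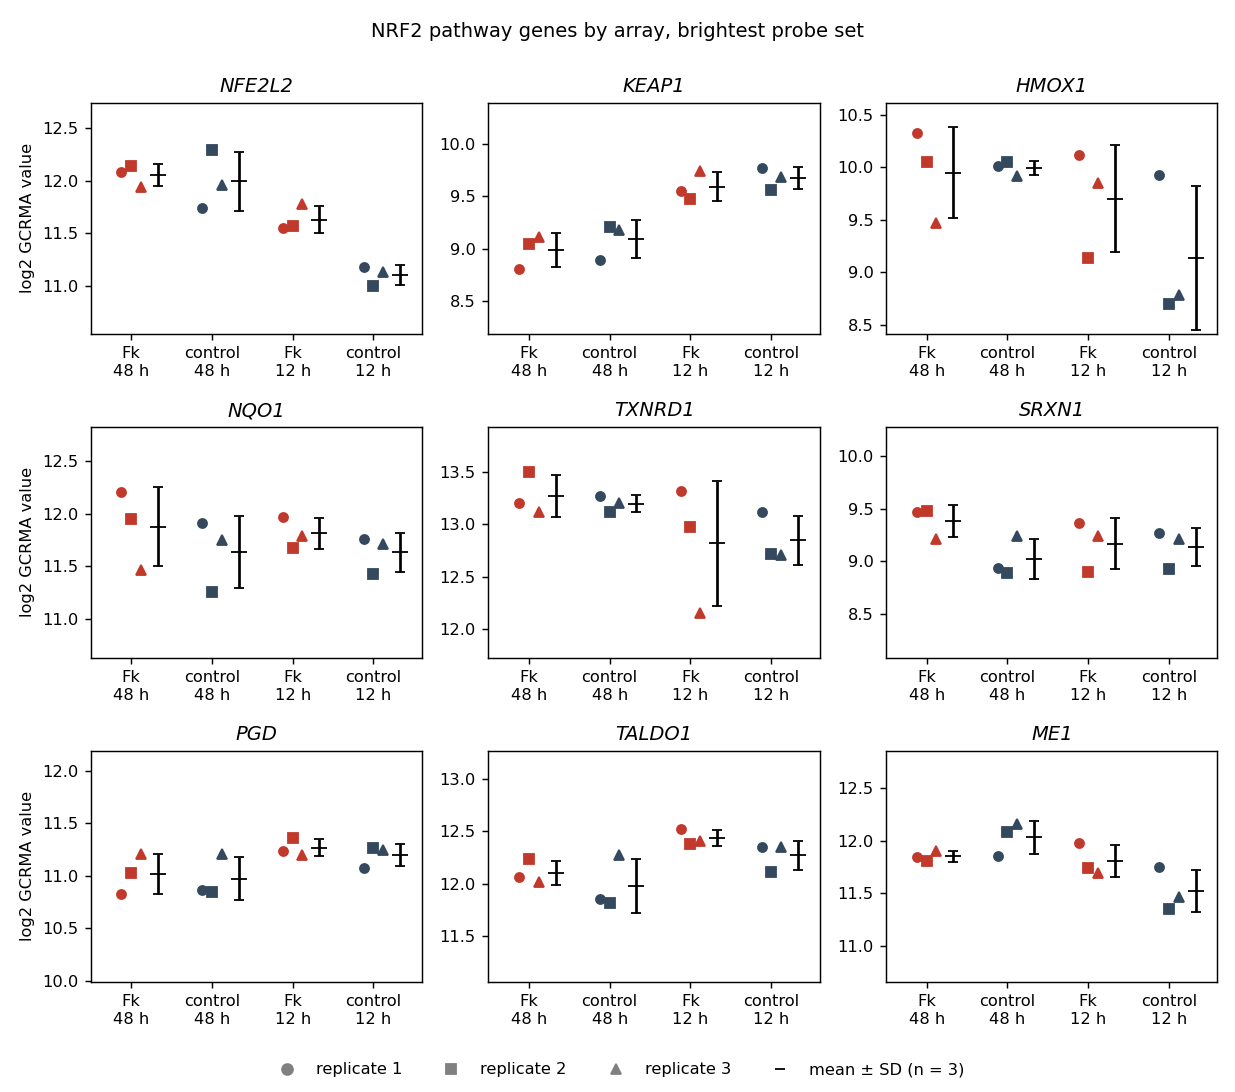
Log2 GCRMA signal of the brightest probe set of each of the 9 genes on every array, with groups on the horizontal axis (Fk 48 h, control 48 h, Fk 12 h, control 12 h). Points are single arrays, the bars beside them are means with SD (n = 3), and every panel spans the same number of log2 units. NFE2L2 is lowest in the 3 control 12 h arrays, KEAP1 is lower in all 6 arrays at 48 h than at 12 h, and HMOX1 and TXNRD1 have the widest spread within a group.

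The first question was whether Fk changed these genes. With limma, 0 of the 9 genes passed an adjusted p of 0.05 at 48 h, against 0% of the 10784 genes tested, and 0 of 9 had an unadjusted p under 0.05, against 5.18% of all genes. At 12 h 0 of 9 passed, against 0% of all genes, and 1 of 9, NFE2L2, had an unadjusted p under 0.05, against 6.71% of all genes. The median difference, Fk minus control, was 0.06 over the 9 genes and 0.02 over all genes at 48 h, and 0.16 over the 9 genes and 0.01 over all genes at 12 h. The arrays of Fk and control did not overlap for 0 of 9 genes at 48 h, against 10.2% of all genes. At 12 h they did not overlap for 2 of 9, NFE2L2 and TALDO1, against 16.4% of all genes. With so few genes these counts do not set them apart from the rest of the array.

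NFE2L2 had the smallest p of the 9 genes at 12 h. Its signals were 11.55, 11.57 and 11.77 in Fk 12 h cells, against 11.18, 10.99 and 11.13 in control 12 h cells. The 3 Fk arrays all lay above the 3 control arrays, with means of 11.63 ± 0.13 in Fk and 11.10 ± 0.098 in control (SD, n = 3 each). The highest Fk signal, 11.77, came from Fk 12 h replicate 3, the array that stood apart. The difference was 0.53 (SE 0.15, 95% interval 0.20 to 0.85), and limma gave an unadjusted p of 0.00482 and an adjusted p of 0.654, so it did not pass. At 48 h the signals were 12.09, 12.14 and 11.94 in Fk cells, against 11.74, 12.29 and 11.96 in control cells. These arrays overlapped, and the difference was 0.06 (95% interval -0.27 to 0.39, adjusted p = 1 with limma). A second NFE2L2 probe set, with a mean of 7.26, did not show the 12 h difference: it gave -0.01 at 12 h and -0.17 at 48 h.

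KEAP1, which holds NRF2 for degradation, was nearly level between Fk and control. It read 8.81, 9.04 and 9.11 in Fk 48 h cells, against 8.89, 9.21 and 9.18 in control 48 h cells. At 12 h it read 9.55, 9.48 and 9.74 in Fk cells, against 9.77, 9.56 and 9.68 in control cells. The groups overlapped at both times, and the differences were -0.10 at 48 h (95% interval -0.40 to 0.20) and -0.08 at 12 h (95% interval -0.38 to 0.22). Both intervals end at or within 0.40 log2 units of 0.

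HMOX1, the inducible heme oxygenase that breaks heme down to biliverdin, carbon monoxide and iron, was uneven within groups, with SDs from 0.069 to 0.69. In Fk 12 h cells it read 10.12, 9.13 and 9.85, against 9.93, 8.70 and 8.78 in control 12 h cells. Control replicate 1 read about as high as the Fk arrays and Fk replicate 2 read low, so the groups overlapped. Means were 9.70 ± 0.51 in Fk and 9.14 ± 0.69 in control (SD, n = 3 each), and they differed by 0.57 (95% interval -0.22 to 1.35, adjusted p = 0.791 with limma). Without control 12 h replicate 1 the difference was 0.96 and without control 12 h replicate 2 it was 0.35, neither of them passing. At 48 h it read 10.33, 10.05 and 9.47 in Fk cells, against 10.01, 10.05 and 9.92 in control cells. The 3 control arrays lay close together inside the range of the Fk arrays, and the difference was -0.04 (95% interval -0.83 to 0.74). This interval was the widest of the 9 genes, and any HMOX1 difference within it, from -0.83 to 0.74, remains compatible with the 48 h arrays.

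NQO1, the quinone reductase, lay a little higher on average in Fk cells at both times and overlapped at both. Its signals were 12.21, 11.95 and 11.46 in Fk 48 h cells, against 11.91, 11.25 and 11.75 in control 48 h cells. At 12 h they were 11.97, 11.68 and 11.79 in Fk cells, against 11.76, 11.42 and 11.71 in control cells. The differences were 0.24 at 48 h (95% interval -0.25 to 0.72) and 0.18 at 12 h (95% interval -0.30 to 0.67), and neither passed (adjusted p = 1 and 0.885 with limma). Its 3 probe sets did not share a sign at 12 h, with 0.18, -0.17 and 0.13 from the brightest to the dimmest, and gave 0.24, 0.04 and 0.28 at 48 h.

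TXNRD1, the cytosolic thioredoxin reductase, was read from a single bright probe set and overlapped between Fk and control at both times. It read 13.20, 13.50 and 13.12 in Fk 48 h cells, against 13.27, 13.12 and 13.21 in control 48 h cells. In Fk 12 h cells it read 13.32, 12.97 and 12.16, against 13.11, 12.72 and 12.71 in control 12 h cells. The low value of 12.16 came from the array that stood apart, 0.99 below the mean of its group mates. The 12 h difference was -0.03 with that array (95% interval -0.59 to 0.54) and 0.30 without it, and neither value passed. At 48 h the difference was 0.08 (95% interval -0.49 to 0.64).

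SRXN1, sulfiredoxin, which restores over-oxidised peroxiredoxins, had the smallest p of the 9 genes at 48 h. It read 9.47, 9.48 and 9.21 in Fk 48 h cells, against 8.94, 8.88 and 9.24 in control 48 h cells. Fk replicates 1 and 2 lay above every control array, while Fk replicate 3 lay just under control replicate 3. Means were 9.38 ± 0.15 in Fk and 9.02 ± 0.19 in control (SD, n = 3 each), and the difference was 0.36 (SE 0.16, 95% interval -7e-04 to 0.72). With limma the unadjusted p was 0.0504 and the adjusted p 0.964. At 12 h SRXN1 read 9.37, 8.90 and 9.24 in Fk cells, against 9.27, 8.93 and 9.21 in control cells, a difference of 0.03.

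The 3 remaining enzymes make NADPH or feed the pathway that does. PGD, the third enzyme of the pentose phosphate pathway, read 10.82, 11.02 and 11.21 in Fk 48 h cells, against 10.86, 10.85 and 11.21 in control 48 h cells. At 12 h PGD read 11.24, 11.36 and 11.20 in Fk cells, against 11.08, 11.26 and 11.25 in control cells. Both pairs overlapped, with differences of 0.05 at 48 h and 0.07 at 12 h. TALDO1, the transaldolase of the same pathway, read 12.06, 12.23 and 12.02 in Fk 48 h cells, against 11.85, 11.82 and 12.28 in control 48 h cells. At 12 h TALDO1 read 12.52, 12.38 and 12.41 in Fk cells, against 12.36, 12.12 and 12.35 in control cells. The 12 h arrays did not overlap, but the gap between the lowest Fk and the highest control array was narrow. The TALDO1 differences were 0.12 at 48 h (95% interval -0.19 to 0.44) and 0.16 at 12 h (95% interval -0.15 to 0.48, adjusted p = 0.828 with limma).

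ME1, cytosolic malic enzyme, which makes NADPH from malate, pointed in opposite ways at the 2 times. It read 11.85, 11.80 and 11.91 in Fk 48 h cells, against 11.85, 12.09 and 12.16 in control 48 h cells. At 12 h it read 11.98, 11.74 and 11.69 in Fk cells, against 11.75, 11.35 and 11.47 in control cells. The groups overlapped at both times. The difference was -0.18 at 48 h (95% interval -0.49 to 0.13) and 0.28 at 12 h (95% interval -0.02 to 0.59, unadjusted p = 0.0675 and adjusted p = 0.759 with limma).

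**Figure D2:**
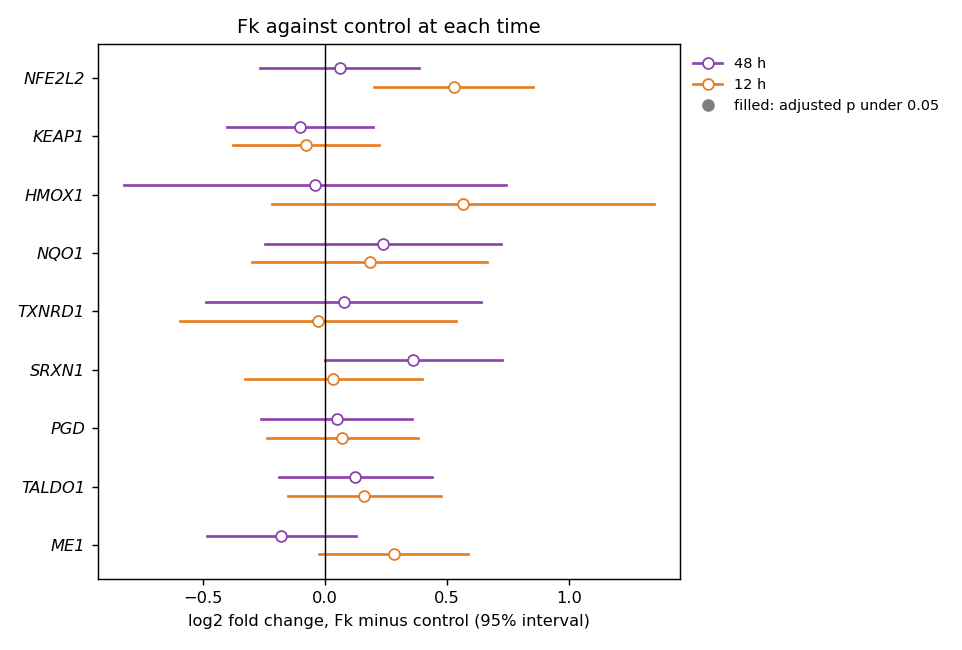
Fk minus control, in log2 units, for the 9 genes at each time, 48 h above 12 h. Points are limma estimates, lines are 95% intervals, and a filled point would mark an adjusted p under 0.05; no point is filled. Only the NFE2L2 interval at 12 h, from 0.20 to 0.85, lies wholly above 0.

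Whether the effect of Fk differed between the times was tested with the difference of the 2 effects, 48 h minus 12 h. With limma 0 of 9 genes passed, against 0% of all genes, and 2 of 9, NFE2L2 and ME1, had an unadjusted p under 0.05, against 3.31% of all genes. NFE2L2 gave -0.47 (95% interval -0.93 to -0.0046, unadjusted p = 0.0481, adjusted p = 0.996). ME1 gave -0.46 (95% interval -0.89 to -0.03, unadjusted p = 0.0386, adjusted p = 0.996). HMOX1 had the widest interval, from -1.72 to 0.50 around -0.61. No difference between the effects of Fk at the 2 times was shown for any of the 9 genes.

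The second question was how the genes moved between 12 h and 48 h in culture. In Fk cells 1 of 9 passed at an adjusted p of 0.05, against 23.2% of all genes tested, and it was lower at 48 h. In control cells 3 of 9 passed, 2 higher and 1 lower, against 21.5% of all genes. The 48 h and 12 h arrays did not overlap for 3 of 9 genes in Fk cells, against 38.7% of all genes, and for 4 of 9 in control cells, against 50.0% of all genes. With so few genes these shares do not set them apart from the whole array. The Fk and the control comparisons share no array. At 48 h, however, the deviations of same-numbered Fk and control arrays had correlations of 0.80, -0.025 and 0.61. The Fk and control comparisons are thus not independent repeats. Some cell type markers moved over the same interval: of 6 general epithelial markers KRT8 fell by 0.56 in Fk cells (adjusted p = 0.0258) and by 0.59 in control cells (adjusted p = 0.0227), and EPCAM rose by 0.58 in control cells (adjusted p = 0.0492). Of the 3 stromal markers tested COL1A1 fell by 0.87 in Fk cells (adjusted p = 0.0104), and none passed in control cells. PAX8 and PECAM1 did not pass in either. The part of these shifts in the time results was not tested.

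KEAP1 fell with time in both. It averaged 8.99 ± 0.16 in Fk 48 h cells and 9.59 ± 0.14 in Fk 12 h cells (SD, n = 3 each), with all 48 h arrays below all 12 h arrays. The difference was -0.60 (SE 0.13, 95% interval -0.90 to -0.30), with an adjusted p of 0.0119 with limma. When only the groups compared entered the fit, the same difference had an adjusted p of 0.061. The highest Fk 12 h signal of KEAP1, 9.74, came from Fk 12 h replicate 3, and the call held with any single array left out. In control cells KEAP1 averaged 9.09 ± 0.18 at 48 h and 9.67 ± 0.10 at 12 h (SD, n = 3 each), again without overlap. That difference was -0.58 (SE 0.13, 95% interval -0.88 to -0.28, adjusted p = 0.0148 with limma). Leaving out control 12 h replicate 1, control 12 h replicate 3 or control 48 h replicate 1 moved its adjusted p to 0.0579, 0.0532 and 0.0617.

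NFE2L2 rose with time in control cells. It averaged 12.00 ± 0.28 at 48 h and 11.10 ± 0.098 at 12 h (SD, n = 3 each), and every 48 h array lay above every 12 h array. The difference was 0.89 (SE 0.15, 95% interval 0.57 to 1.22, adjusted p = 0.00355 with limma), and it passed with any single array left out. In Fk cells it averaged 12.06 ± 0.11 at 48 h and 11.63 ± 0.13 at 12 h (SD, n = 3 each), also without overlap. There the difference was 0.43 (SE 0.15, 95% interval 0.10 to 0.75) and just missed the threshold, at an adjusted p of 0.061. It passed without Fk 12 h replicate 3 (0.50, adjusted p = 0.0437), and also without control 48 h replicate 1 (adjusted p = 0.0439) or control 48 h replicate 2 (adjusted p = 0.0383). Those control arrays are not part of this comparison, and leaving either out kept the difference at 0.43. Without Fk 48 h replicate 2 the adjusted p with limma rose to 0.164. The test of the difference between both time changes is the one given above, -0.47 with an adjusted p of 0.996, so the time change was not shown to differ between Fk and control.

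ME1 rose with time in control cells, with means of 12.03 ± 0.16 at 48 h and 11.52 ± 0.20 at 12 h (SD, n = 3 each) and no overlap. The difference was 0.51 (SE 0.14, 95% interval 0.20 to 0.82, adjusted p = 0.0266 with limma). It lost the call without control 12 h replicate 2 (adjusted p = 0.0984), control 12 h replicate 3 (0.0885), control 48 h replicate 2 (0.085) or control 48 h replicate 3 (0.0616). In Fk cells ME1 averaged 11.85 ± 0.051 at 48 h and 11.80 ± 0.15 at 12 h (SD, n = 3 each), a difference of 0.05.

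The other 6 genes did not pass with time in either condition. HMOX1 came nearest in control cells, with means of 9.99 ± 0.069 at 48 h and 9.14 ± 0.69 at 12 h (SD, n = 3 each). Its difference was 0.86 (95% interval 0.07 to 1.64, adjusted p = 0.108), and it passed only without control 12 h replicate 1, the high 12 h array (1.25, adjusted p = 0.0308). Without control 12 h replicate 2 the HMOX1 difference was 0.64 (adjusted p = 0.303 with limma). In Fk cells HMOX1 differed by 0.25 (95% interval -0.53 to 1.03). TALDO1 gave -0.33 in Fk cells (95% interval -0.64 to -0.01, adjusted p = 0.118), without overlap, and -0.29 in control cells (95% interval -0.61 to 0.02, adjusted p = 0.166). In control cells TALDO1 passed without control 48 h replicate 3, the highest of its 48 h arrays (-0.44, adjusted p = 0.0329). Without control 48 h replicate 2 TALDO1 gave -0.21 there (adjusted p = 0.408 with limma). PGD gave -0.25 in Fk cells and -0.22 in control cells. TXNRD1 gave 0.46 in Fk cells, or 0.13 without Fk 12 h replicate 3, and 0.35 in control cells, where the arrays did not overlap (adjusted p = 0.348). SRXN1 gave 0.22 in Fk cells and -0.11 in control cells. NQO1 was nearly level, at 0.06 in Fk cells (95% interval -0.42 to 0.54) and 0.01 in control cells (95% interval -0.48 to 0.49).

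**Figure D3:**
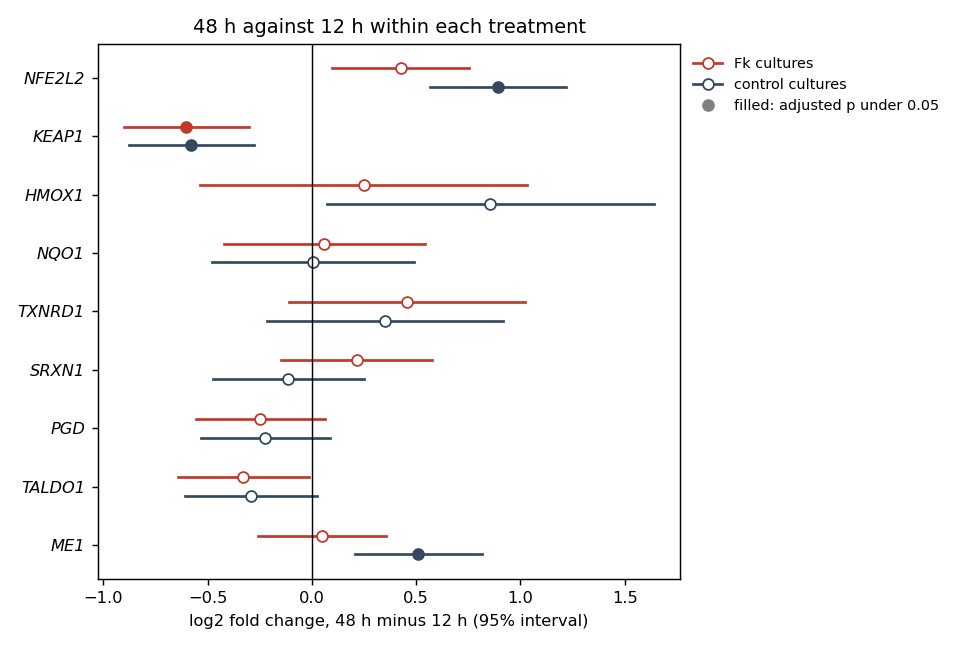
Difference between 48 h and 12 h, in log2 units, for the 9 genes in Fk cells and in control cells. Points are limma estimates, lines are 95% intervals, and filled points have an adjusted p under 0.05. KEAP1 is filled in both, at -0.60 in Fk and -0.58 in control, and NFE2L2 (0.89) and ME1 (0.51) are filled in control.

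The 18 probe sets of these genes differ in how much signal they carry. Of them 5 averaged 2.28 to 2.39, near background, and 13 averaged 4 or more. A further probe set, shared by NFE2L2 and CSNK2A1, was not used because it names 2 genes. Only NFE2L2, NQO1 and ME1 have more than 1 probe set above 4, so the other 6 genes rest on 1 probe set each. The second NFE2L2 probe set gave 0.60 with time in control cells and 0.44 in Fk cells, the same sign as 0.89 and 0.43 on the brightest one. The second ME1 probe set, with a mean of 10.83, gave 0.69 with time in control cells and 0.24 in Fk cells. For Fk against control that probe set gave -0.38 at 48 h and 0.07 at 12 h, on the same side of 0 as the brightest ME1 probe set at both times. ME1 was read from it when all probe sets ending in _x_at or _s_at were left out, which cut the genes tested to 7949. In that fit ME1 no longer passed with time in control cells (0.69, adjusted p = 0.0681 with limma).

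**Figure D4:**
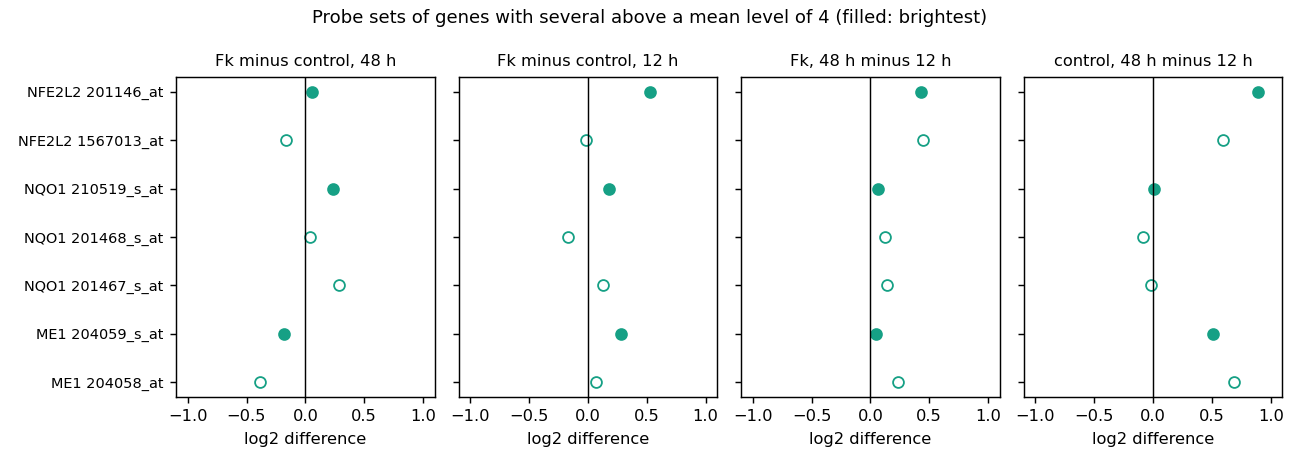
Log2 differences given by each of the 7 probe sets of NFE2L2, NQO1 and ME1 that average 4 or more, in log2 units on the horizontal axes. The panels show Fk minus control at 48 h, the same at 12 h, and 48 h minus 12 h in Fk and in control cells. Filled points are the brightest probe set of each gene. The NFE2L2 probe sets part at 12 h, where they give 0.53 and -0.01, and share a sign in both comparisons of time.

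Over the 12 arrays 3 of the 9 genes spanned more than 1 log2 unit: HMOX1 by 1.62, TXNRD1 by 1.34 and NFE2L2 by 1.30. Without Fk 12 h replicate 3 TXNRD1 spanned 0.79, while the other 2 spans did not move. The genes with the most similar profile were, by Pearson's r over 12 arrays, BLTP1 (0.95), CPEB4 (0.95) and INTS7 (0.94) for NFE2L2. For HMOX1 they were BTN2A2 (0.87), DNASE2 (0.86) and TRAF4 (0.86). For TXNRD1 they were VHL (0.93), ATAD2B (0.92) and PLCD3 (0.92), which gave 0.82, 0.79 and 0.89 over the 11 arrays without Fk 12 h replicate 3. These values are the highest among 10784 genes over arrays that share time, treatment and normalization, and are given as a description.

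Of 17 other listed regulators of NRF2, 15 were tested, and with limma 0 passed for Fk against control at either time, with 0 at an unadjusted p under 0.05 at both, against 5.18% of all genes at 48 h and 6.71% at 12 h. The smallest p at 48 h were those of PALB2, a KEAP1-binding repair protein (-0.19, adjusted p = 1), and NFE2L1, which encodes the related factor NRF1 (0.32, adjusted p = 1). At 12 h they were those of PGAM5, a mitochondrial phosphatase bound by KEAP1 (-0.27, adjusted p = 0.811), and BTRC, a ligase adaptor that acts on NRF2 apart from KEAP1 (-0.39, adjusted p = 0.823). BTRC read 7.10, 7.31 and 5.92 in Fk 12 h cells, against 7.21, 7.15 and 7.14 in control 12 h cells. The low value came from Fk 12 h replicate 3, and without that array the difference was 0.04. The median difference of the list was 0.05 at 48 h and -0.11 at 12 h, and the 12 h median turned to 0.04 without Fk 12 h replicate 3.

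Between times 10 of the 15 regulators passed in Fk cells, 5 higher and 5 lower at 48 h, and 8 of 15 in control cells, 4 higher and 4 lower, against the 23.2% and 21.5% of all genes given above. Without Fk 12 h replicate 3 the counts in Fk cells were 4 higher and 3 lower. With single arrays left out the total in Fk cells ran from 4, without Fk 12 h replicate 2 or Fk 48 h replicate 2, to 10, and in control cells from 2, without control 12 h replicate 2 or 3, to 10, without Fk 12 h replicate 3. The median was 0.23 in Fk cells, or 0.14 without Fk 12 h replicate 3, and 0.30 in control cells. Of the genes that passed, 7 were shared and had the same sign, 70% of those in Fk and 87.5% of those in control: BACH1, CUL3, DPP3, NFE2L1, PGAM5, RBX1 and SQSTM1. Over all genes 1575 were shared with the same sign, 63% of those in Fk and 68.1% of those in control. With arrays left out singly, the SQSTM1 call was lost for 8 arrays in Fk cells and for 5 in control cells. The DPP3 call was lost for 4 arrays in Fk cells and for 8 in control cells.

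Among those higher at 48 h was BACH1, the repressor that competes with NRF2 at response elements. It read 9.03, 9.61 and 9.24 in Fk 48 h cells, against 8.02, 8.17 and 6.67 in Fk 12 h cells, with no overlap. The difference was 1.67 in Fk cells, and 1.20 without the low array, Fk 12 h replicate 3 (adjusted p = 0.00688). In control cells it was 1.42, and it lost the call without control 12 h replicate 2, control 12 h replicate 3 or control 48 h replicate 2 (adjusted p up to 0.0717). NFE2L1 rose by 1.01 in Fk cells and by 0.85 in control cells, and its 3 probe sets gave 0.99 to 1.05 in Fk cells and 0.85 to 1.07 in control cells. The NFE2L1 call in control cells was lost without control 12 h replicate 2, control 12 h replicate 3 or control 48 h replicate 1 (adjusted p up to 0.0731). PALB2 rose in control cells, by 0.43, and lost the call under the same 3 omissions (adjusted p up to 0.0724).

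Among those lower at 48 h were parts of the ligase that KEAP1 serves. CUL3, its scaffold, averaged 10.81 ± 0.19 in Fk 48 h cells and 11.38 ± 0.13 in Fk 12 h cells, and 10.72 ± 0.21 in control 48 h cells and 11.51 ± 0.075 in control 12 h cells (SD, n = 3 each). The difference was -0.57 in Fk and -0.79 in control cells, and the Fk call was lost without Fk 12 h replicate 2 (adjusted p = 0.0627). A dimmer CUL3 probe set, with a mean of 7.05, gave -0.58 in control cells but 0.57 in Fk cells, so the CUL3 probe sets disagree in Fk. RBX1, the RING subunit of that ligase, is named here after its values were seen. It gave -0.91 in Fk and -1.07 in control cells and lost the Fk call without any 1 of 5 Fk arrays (all but Fk 48 h replicate 3) and the control call without control 12 h replicate 2 or 3 or control 48 h replicate 1 or 2. PGAM5 fell by 0.94 in Fk and by 1.17 in control cells, both calls holding with any single array left out.

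**Figure D5:**
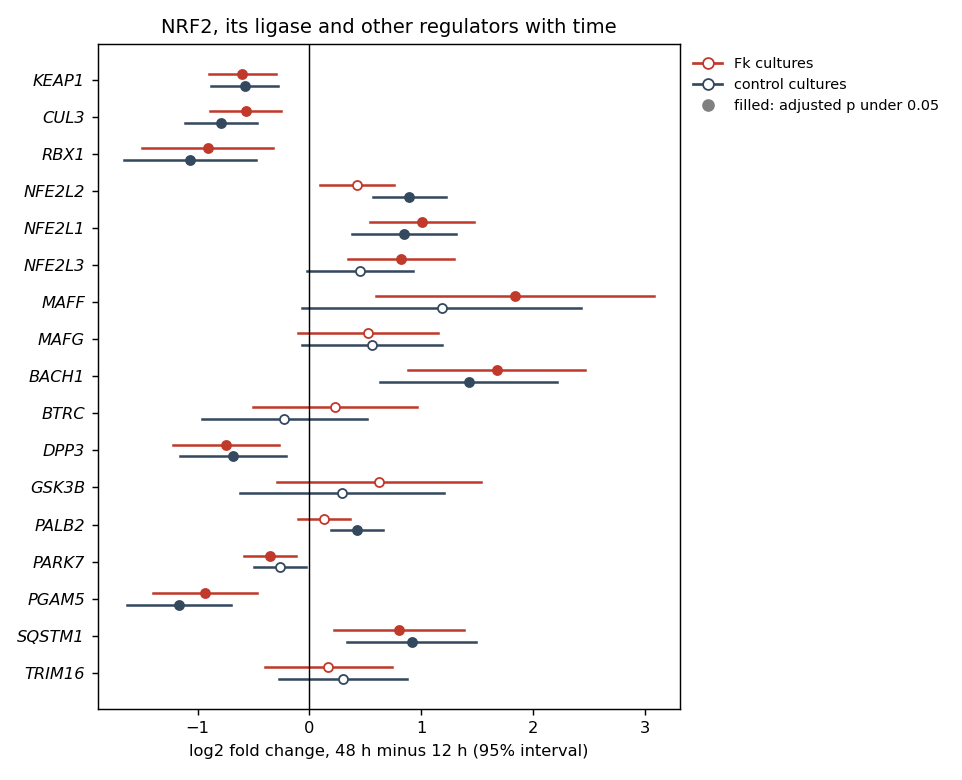
Difference between 48 h and 12 h, in log2 units, for NFE2L2, KEAP1 and 15 other regulators of NRF2 in Fk cells and in control cells, with 95% intervals from limma. Filled points have an adjusted p under 0.05. KEAP1, CUL3 and RBX1 lie below 0 and BACH1, NFE2L1 and SQSTM1 lie above 0 in both.

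Of 41 other listed NRF2 targets 32 were tested. For Fk against control 0 passed at either time with limma, with 3 at an unadjusted p under 0.05 at 48 h and 1 at 12 h, against 5.18% and 6.71% of all genes. The median was 0.01 at 48 h and 0.08 at 12 h. OSGIN1, an oxidative stress growth inhibitor, had the smallest p at 48 h, reading 5.52, 5.28 and 4.56 in Fk cells, against 4.04, 3.89 and 4.53 in control cells (difference 0.97, unadjusted p = 0.0114, adjusted p = 0.737). All 3 Fk arrays lay above the controls, the lowest by a narrow margin. The OSGIN1 control signals lay near the level filter of 4, so the size of this difference is uncertain. ABCC3, an export pump for conjugates, followed at 0.83 (adjusted p = 0.775). At 12 h the smallest were SLC7A11, the cystine transporter that feeds glutathione synthesis (1.13, adjusted p = 0.739), and GCLC, the catalytic subunit of glutamate-cysteine ligase (0.55, adjusted p = 0.759). Without Fk 12 h replicate 3 SLC7A11 gave 1.34 and GCLC gave 0.43.

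Between times 8 of the 32 targets passed in Fk cells, 4 higher and 4 lower, and 12 in control cells, 6 higher and 6 lower, against 23.2% of all genes in Fk and 21.5% in control cells. Of these 6 were shared with the same sign. With single arrays left out the total in Fk cells ran from 5, without Fk 48 h replicate 1, to 10, and in control cells from 5, without control 12 h replicate 3 or control 48 h replicate 1 or 2, to 14, without Fk 12 h replicate 3. Those that passed included SLC7A11, at 2.77 in Fk and 3.91 in control cells, and GDF15, a stress-induced cytokine, at 2.92 in Fk and 2.46 in control cells. SLC7A11 read 11.55, 11.52 and 11.20 in Fk 48 h cells, against 9.87, 7.86 and 8.25 in Fk 12 h cells. In control cells SLC7A11 read 11.38, 11.60 and 11.33 at 48 h, against 7.98, 6.58 and 8.02 at 12 h. All 48 h arrays lay above all 12 h arrays in both conditions. SPX rose by 2.22 in Fk and by 2.79 in control cells, ABCC3 rose by 1.47 in Fk cells and TRIM16L rose by 1.21 in control cells. Without Fk 12 h replicate 3 the Fk values were 2.56 for SLC7A11, 2.55 for GDF15, 1.78 for SPX and 1.25 for ABCC3. GDF15 and SPX are on the list although they are also under other controls, and the link of SPX to NRF2 is uncertain. GCLM, the regulatory subunit beside GCLC, is named here after its values were seen and went the other way from SLC7A11. It fell by 0.85 in Fk and by 0.61 in control cells, the control call being lost when any of 7 arrays was left out singly.

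Of 16 listed enzymes of NADPH supply besides PGD, TALDO1 and ME1, 14 were tested. For Fk against control 0 passed with limma, with 1 at an unadjusted p under 0.05 at 48 h and 2 at 12 h, against 5.18% and 6.71% of all genes. The smallest p at 48 h were those of TKT, transketolase (0.32, adjusted p = 0.904), and H6PD, which makes NADPH inside the endoplasmic reticulum (0.35, adjusted p = 1). At 12 h they were those of PGLS, the lactonase of the pentose phosphate pathway (0.38, adjusted p = 0.71), and ALDH1L2, the mitochondrial folate enzyme (1.52, adjusted p = 0.71). Without Fk 12 h replicate 3 PGLS gave 0.29 and ALDH1L2 gave 1.55. Between times 2 of 14 passed in Fk cells and 3 in control cells, all higher at 48 h, against 23.2% of all genes in Fk and 21.5% in control cells that passed in either direction. ALDH1L2 moved furthest, by 2.37 in Fk and 3.64 in control cells, and its Fk call was lost without Fk 12 h replicate 2 or Fk 48 h replicate 1 or 2 (adjusted p up to 0.0772). H6PD rose by 0.95 in Fk cells, and PGLS rose by 0.56 and NNT, the mitochondrial transhydrogenase, by 0.53 in control cells. Without Fk 12 h replicate 3 H6PD rose by 0.70. The H6PD call was lost without Fk 48 h replicate 1 or 2, the PGLS call without control 12 h replicate 1 or 2 or control 48 h replicate 1 or 2, and the NNT call when any of 6 arrays was left out singly. Without Fk 48 h replicate 1 or 2 no enzyme of this list passed in Fk cells, and with single arrays left out 1 to 4 passed in control cells.

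Of 31 other listed antioxidant enzymes and partners 26 were tested. For Fk against control 0 passed with limma, with 2 at an unadjusted p under 0.05 at 48 h and 3 at 12 h, against 5.18% and 6.71% of all genes. GPX3, the secreted glutathione peroxidase of the kidney, had the smallest p at 48 h among the pathway genes listed here. It read 11.75, 11.45 and 11.48 in Fk 48 h cells, against 12.41, 12.00 and 12.18 in control 48 h cells, with no overlap. The difference was -0.63 (SE 0.13, 95% interval -0.92 to -0.34, unadjusted p = 0.000625, adjusted p = 0.382 with limma). At 12 h GPX3 read 11.48, 11.57 and 11.40 in Fk cells, against 11.30, 11.25 and 11.25 in control cells. The change of the Fk effect between times was -0.85 for GPX3 (unadjusted p = 0.000939, adjusted p = 0.996), also short of the threshold. CAT, catalase, gave 0.65 at 48 h (adjusted p = 0.795). At 12 h the smallest p were those of SESN2, a stress-induced sestrin (0.80, adjusted p = 0.689), and TXNIP, which binds thioredoxin (1.46, adjusted p = 0.726). Fk 12 h replicate 3 was the highest array of both, and without it SESN2 gave 0.47 (adjusted p = 0.733) and TXNIP gave 0.74 (adjusted p = 0.79).

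Between times 5 of these 26 passed in Fk cells and 5 in control cells, 2 higher and 3 lower in each, against 23.2% of all genes in Fk and 21.5% in control cells. Of these 4 were shared. TXNIP fell furthest, reading 5.22, 3.93 and 3.35 in Fk 48 h cells, against 9.59, 9.32 and 11.61 in Fk 12 h cells. In control cells TXNIP read 3.46, 3.35 and 3.82 at 48 h, against 8.29, 8.67 and 9.18 at 12 h. The differences were -6.00 in Fk and -5.17 in control cells, and most 48 h signals were under the level filter of 4, so the size of the fall is uncertain. SESN2 rose by 1.35 in Fk and by 2.22 in control cells, and GPX3 rose by 0.93 in control cells. Without Fk 12 h replicate 3 the Fk differences were -5.29 for TXNIP and 1.68 for SESN2. GLRX5, a mitochondrial glutaredoxin, fell by 0.59 in Fk and by 0.63 in control cells. SOD1, the cytosolic superoxide dismutase, fell by 0.54 in Fk cells, a call lost without Fk 12 h replicate 1 or 2 or Fk 48 h replicate 1 or 2 (adjusted p up to 0.0859). With single arrays left out the total ran from 3, without any of those same 4 arrays, to 7 in Fk cells, and from 4 to 7 in control cells.

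Of 16 listed genes of heme and iron handling besides HMOX1, 12 were tested, and 0 passed for Fk against control with limma, with 0 at an unadjusted p under 0.05 at 48 h and 1 at 12 h, against 5.18% and 6.71% of all genes. SLC40A1, the iron exporter ferroportin, had the smallest p at both times, at 0.84 at 48 h (adjusted p = 1) and 1.46 at 12 h (unadjusted p = 0.00831, adjusted p = 0.654). In Fk 12 h cells SLC40A1 read 7.06, 7.68 and 8.57, against 5.93, 6.63 and 6.37 in control 12 h cells. All Fk arrays lay above all control arrays, and the highest was Fk 12 h replicate 3, without which the difference was 1.06 (adjusted p = 0.598). Next came FLVCR1, a heme exporter, at 48 h (-0.31, adjusted p = 1), and ALAD, an enzyme of heme synthesis, at 12 h (0.33, adjusted p = 0.759, or 0.17 without Fk 12 h replicate 3).

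Between times 4 of the 12 passed in Fk cells and 3 in control cells, all lower at 48 h, against 23.2% of all genes in Fk and 21.5% in control cells that passed in either direction. Of these 3 were shared. HMOX2, the constitutive heme oxygenase, averaged 8.45 ± 0.095 in Fk 48 h cells and 9.61 ± 0.36 in Fk 12 h cells (SD, n = 3 each), a difference of -1.16, while HMOX1 gave 0.25 there and did not pass. Without Fk 12 h replicate 3 the HMOX2 difference was -0.95. In control cells HMOX2 averaged 8.66 ± 0.13 at 48 h and 9.61 ± 0.18 at 12 h (SD, n = 3 each), a difference of -0.95. FLVCR1 fell by 1.53 in Fk and by 1.07 in control cells. CPOX and UROD, enzymes of heme synthesis, fell by 0.90 and 0.42 in Fk cells, and UROD fell by 0.41 in control cells, each of these calls being lost when any of 7 or 8 arrays was left out singly. With single arrays left out the total ran from 2 to 5 in Fk cells, with 2 for 6 of the 12 arrays, and from 2 to 4 in control cells.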

How the data were processed

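Total RNA of 12 HK-2 cultures was hybridised to Affymetrix arrays. The authors deposited GCRMA values, as the submitters' processing notes name them, and their range places these signals on the log2 scale. GCRMA's version, and which arrays were normalized together, are not given in the sources used here. Probe sets were named from GEO's platform annotation, with symbols updated by Entrez ID. Each gene took its brightest probe set with 1 symbol, tested if it reached 4 on at least 3 arrays.

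limma 3.58.1 in R 4.3.3 fitted 1 mean per group over all 12 arrays with two-sided eBayes tests and 8 residual degrees of freedom. P-values were adjusted by Benjamini-Hochberg over 10784 genes, with a threshold of 0.05. The fit was also run on simulated data with independent noise of equal size on every array. These arrays differ from that setting, and no result here rests on the run. With 3 arrays per group the median half-width of a 95% interval was 0.447 log2 units. The fit did not pair samples by replicate number, although same-numbered arrays of replicates 1 and 3 deviated together at 48 h. Alternatives changed the probe set, the level filter, the fit, the weights, the block and the arrays used.

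The genes and lists were chosen with earlier results of these data known. Besides the 9 genes, each list gives up to 4 genes with the smallest adjusted p that passed in a comparison, or the 2 with the smallest p where none did. A gene outside this rule is said to be named after its values were seen.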

Additional observations from a re-analysis of the deposited data

How the results depend on the processing

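No gene of the 9 passed for Fk against control at 48 h or at 12 h under any of the 23 alternatives of each, nor for the difference between those effects under 22. For 48 h minus 12 h in Fk cells the count of 1 became 3 with array weights (KEAP1, NFE2L2 and PGD), 2 with eBayes using trend and robust, and 0 with only the groups compared, and single arrays left out gave 1 to 2. In control cells the count of 3 ran from 1 (NFE2L2, without control 12 h replicate 3) to 3 with single arrays left out, and was 4 with array weights, TALDO1 being added. Array weights were set gene by gene, a method chosen after the default fit did not converge. No called value changed sign. Over all 10784 genes the calls between times were 2500 in Fk cells (831 with only the groups compared, 5345 with array weights) and 2314 in control cells (1060 without control 12 h replicate 3, 4920 with array weights). For Fk against control the main count of 0 became 94 at 48 h and 156 at 12 h with array weights. The deviations of same-numbered Fk and control arrays had correlations of 0.80, -0.03 and 0.61 at 48 h and 0.04, 0.27 and 0.16 at 12 h. Each Fk array also correlated best, among control arrays of its time, with the one of its own number. These correlations were 0.99, 0.986 and 0.987 at 48 h and 0.991, 0.991 and 0.949 at 12 h. By the deviations a link by number was clearest at 48 h for replicates 1 and 3. The best correlations followed the number at both times, and the main fit did not use this link. A replicate block within time gave 0 calls at 48 h and 1 at 12 h over all genes, and a replicate block over all 4 groups gave 2778 calls in Fk and 2589 in control cells between times. The replicate block left the count among the 9 genes at 0 for Fk against control, and at 1 in Fk and 3 in control cells between times. Reading NQO1 and TALDO1 without probe sets that can bind several transcripts was not possible, as they have no others.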
